A study of Homo sapiens with 18 samples.

Results

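The response of C4-2B cells to knockdown of EMD was set against that of DU145 cells, gene by gene. The measured quantity is a difference of differences: the log2 change of C4-2B (knockdown over control) less the log2 change of DU145, so that a negative value means that C4-2B moved lower than DU145 did. Its members are 12 RNA-seq libraries of the 18 in the series, in 4 groups of 3: C4-2B with a control, C4-2B with EMD knockdown, DU145 with a control and DU145 with EMD knockdown. The 2 lines' tables share 19663 genes, of which 17216 had enough reads to be tested.

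Both lines are established human prostate cancer cell lines. C4-2B derives from LNCaP cells by passage through castrated hosts, and DU145 was established from a metastasis to the brain. Per the labels' protocols, all 4 groups were treated with a lipid transfection reagent and an siRNA, either against EMD or scrambled, and the mix was taken off after 24 h. The name of each DU145 knockdown library carries the prefix shEMD, a usual mark of a hairpin vector, and the labels do not settle which reagent those cells received. C4-2B was grown in RPMI-1640 and DU145 in DMEM, and line, medium, batch label and table coincide. These cannot be told apart in the difference, beyond what acts alike on both arms of a line. The time of harvest is not given. Replicates are called triplicates with no word on separate cultures, so p-values measure the spread between these libraries, which may be technical.

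The summed reads ran from 14722733 to 25112148 per library in C4-2B and from 21024352 to 43311727 in DU145. Within groups, libraries differed by more than counting noise, with a chi-square per degree of freedom of 2.28 to 6.67 between pairs. DU145 knockdown 3 stood apart from its group, at 5.90 and 6.67 from knockdowns 1 and 2, which differed from each other by 2.28. Without it, 3526 genes were higher and 4153 lower in the difference between the lines described below, against 3614 and 4232 with it. Line markers fitted the labels. HOXB13, a prostate homeobox factor, was at 184 to 224 CPM (counts scaled to a library total of 1e6) in C4-2B and at most 0.0282 in DU145. AXL, a receptor kinase, was at 600 to 725 in DU145 and at most 0.206 in C4-2B. The share of reads from mitochondrial genes went from between 4.24% and 4.58% in controls to between 3.13% and 3.59% after knockdown in C4-2B, and from between 9.06% and 9.24% to between 7.20% and 7.45% in DU145. Among 11 blood cell markers, 9 had reads in DU145, and their summed level went from between 92.5 and 95.1 to between 30.7 and 31.9 CPM. Nearly all of that was CD68, a lysosomal glycoprotein also made by tumour cells, at 91.5 to 93.8 and then 28.9 to 30.2 CPM. The C4-2B table held 3 of the 11, which summed to between 4.38 and 6.31 CPM in controls and between 2.92 and 3.53 after knockdown. Of 13 fibroblast and endothelial markers, the 5 in the C4-2B table summed to between 46.6 and 53 CPM. All 13 were in the DU145 table, where they summed to between 4.92 and 8.04 CPM in controls and between 8.77 and 11.4 after knockdown. The lines' sums cover unlike sets and are not compared. The part of these shifts in the results below was not tested.

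EMD encodes emerin, an inner nuclear membrane protein of the LEM-domain family that binds lamins and the chromatin protein BANF1, and ties the envelope to the nuclear cytoskeleton. Loss of emerin in muscle causes Emery-Dreifuss muscular dystrophy. Emerin has been linked to actin polymerisation at the envelope, and so to the cofactor MRTF and its partner SRF, which drive cytoskeletal genes. Through lamins it also bears on the retinoblastoma protein and on the cell cycle.

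EMD (ENSG00000102119, chrX:154379197-154381523, plus strand, GRCh38) fell in both lines. C4-2B controls 1 to 3 read 65.2, 72.9 and 65.5 CPM (scaled by TMM from here on) and the knockdown libraries 8.26, 9.77 and 6.205. DU145 controls read 46.9, 51.0 and 43.2 CPM and the knockdown libraries 5.01, 5.01 and 5.47. The knockdown arm lay below the control arm in each line, with log2 changes of -3.06 ± 0.11 in C4-2B and -3.19 ± 0.10 in DU145 (± SE throughout). The difference between the lines did not pass, at 0.12 ± 0.16 (edgeR adjusted p = 0.568), and its 95% interval ran from -0.24 to 0.48. Its sign turned without C4-2B knockdown 2 (-0.04, edgeR adjusted p = 0.879).

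Across the transcriptome, 7846 of 17216 genes (45.6%) responded differently (edgeR quasi-likelihood test, Benjamini-Hochberg adjusted p under 0.05). Of all tested genes, 3614 (21%) were higher in C4-2B than in DU145 and 4232 (24.6%) lower, and the counts of each list below stand against these shares. A difference of at least 2-fold was passed by 1142 genes higher (6.63%) and 1085 lower (6.3%). Within C4-2B, 3381 genes rose (19.6%) and 3668 fell (21.3%). Within DU145, 4488 rose (26.1%) and 3794 fell (22%), so that 48.1% changed, against 40.9% in C4-2B. The DU145 libraries were mostly deeper (21024352 to 43311727 reads, against 14722733 to 25112148). The part of depth in these 2 shares was not tested. For 7176 genes (41.7%) the 9 knockdown-to-control ratios of C4-2B all lay on 1 side of the 9 of DU145. The share called climbed with the level, from 12.4% of genes with a mean log2 CPM under 0 to 68.1% of those over 6. Lists of genes with high levels may exceed the shares of all tested genes on that account, which was not tested.

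Opposite movement past the threshold in both lines accounted for 2248 of the 7846 genes: 962 genes rose in C4-2B and fell in DU145, and 1286 fell in C4-2B and rose in DU145. A further 2802 changed past the threshold in DU145 and not in C4-2B (1381 fell, 1421 rose), and 1826 in C4-2B and not in DU145 (823 rose, 1003 fell). A change that did not pass in 1 line may still have the same direction there. The part of library depth in these counts was not tested either. Movement in the same direction by different amounts was found for 729 genes, and 241 differed with neither line past the threshold. Against this, 692 genes rose and 533 fell in both lines without a difference that passed. Across the 17216 genes, which are not independent, the 2 lines' log2 changes had a Pearson r of 0.00697 and a Spearman rho of 0.000142. The lines share no library, and the median difference was -0.03.

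**Figure D1:**
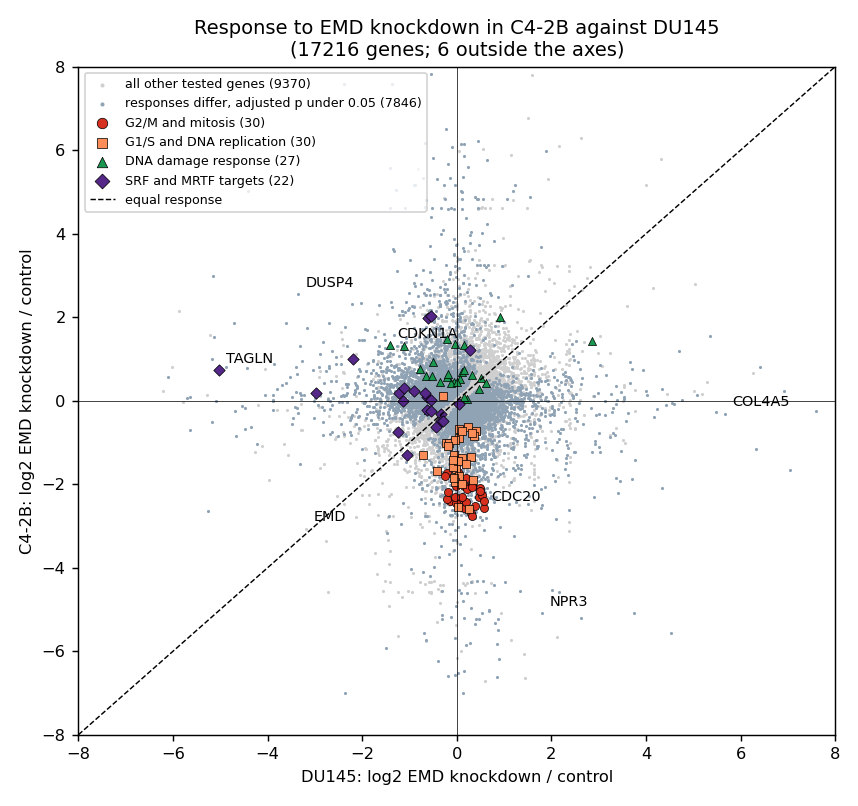
Log2 change after EMD knockdown in DU145 (horizontal) and in C4-2B (vertical) for 17216 genes, each point a gene, with the dashed line at equal response. G2/M genes lie low on the C4-2B axis (median -2.21) and near 0 on the DU145 axis (median 0.17), while the SRF and MRTF targets stretch to the left; 6 genes fall outside the axes.

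Of the gene lists, that of G2/M diverged furthest. All 30 G2/M and mitosis genes were lower in C4-2B than in DU145, each by at least 2-fold, against 24.6% of all tested genes. Their median difference was -2.37 (all genes, -0.03), made of a median log2 change of -2.21 in C4-2B and 0.17 in DU145. In C4-2B all 30 fell, whereas in DU145 17 rose, 5 fell and 8 did not pass. Bulk RNA cannot tell fewer cycling cells from less of these transcripts per cell.

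Promoters of G2/M genes are known for 2 short elements, the CHR (cell cycle genes homology region), searched as TTTGAA or TTCGAA on both strands, and the CCAAT box bound by NF-Y, searched on both strands too. DREAM and the B-MYB complex act through the CHR to silence or drive these genes over the cycle. The 250 bases before the RefSeq start (GRCh38.p14) of 3 of the 4 genes with the largest G2/M differences are shown because they carry the letters in different makeups, with motif letters in capitals on the strand of the gene.
CDC20 (chr1:43358731-43358980, plus strand): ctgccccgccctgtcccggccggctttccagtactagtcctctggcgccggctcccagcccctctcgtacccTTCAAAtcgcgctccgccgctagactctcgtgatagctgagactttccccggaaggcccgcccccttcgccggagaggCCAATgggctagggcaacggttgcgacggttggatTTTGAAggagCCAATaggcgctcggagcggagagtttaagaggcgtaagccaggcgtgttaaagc
HMMR (chr5:163460382-163460631, plus strand): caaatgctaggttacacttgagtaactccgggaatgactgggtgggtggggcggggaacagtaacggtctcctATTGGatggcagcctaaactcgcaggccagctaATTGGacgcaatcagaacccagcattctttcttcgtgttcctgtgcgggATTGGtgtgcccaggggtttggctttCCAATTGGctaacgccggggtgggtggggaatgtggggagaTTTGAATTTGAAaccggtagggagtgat
KIF20A (chr5:138178862-138179111, plus strand): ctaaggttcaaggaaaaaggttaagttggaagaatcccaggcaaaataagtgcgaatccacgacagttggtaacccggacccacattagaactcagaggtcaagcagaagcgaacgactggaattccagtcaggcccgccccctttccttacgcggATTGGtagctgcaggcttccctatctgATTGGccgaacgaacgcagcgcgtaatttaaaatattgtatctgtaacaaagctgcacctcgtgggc
The CDC20 and HMMR windows hold both motifs, and that of KIF20A holds the CCAAT letters (as ATTGG on this strand) without either CHR form. Of the 30 G2/M genes, 24 had a promoter in the table, and 11 of these (45.8%) held both motifs, against 5.24% of 27305 promoters in the table and 3.92% of 12486 promoters of tested genes. The CHR letters were in 12 (50%, against 14.6% of all) and CCAAT in 19 (79.2%, against 33%). In the G1/S list both motifs were in 2 of 25 promoters (8%), and in the DNA damage response list (p53 targets) in 0 of 23. A match of letters is a description of the sequence and not evidence of binding.

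CDC20, whose promoter heads the sequences above, activates the anaphase-promoting complex. It read 75.4, 78.5 and 76.6 CPM in C4-2B controls and 15.9, 9.77 and 13.6 after knockdown. In DU145 it read 274, 298 and 285 CPM in controls and 435, 437 and 407 after knockdown. The arms separated in both lines and in opposite directions, and the difference was -3.15 ± 0.12 (edgeR adjusted p = 2.13e-11). HMMR, a spindle-associated hyaluronan receptor, went from 72.5, 67.9 and 65.5 CPM to 10.2, 11.8 and 9.63 in C4-2B. In DU145 the same transcript went from 111, 111 and 112 CPM to 139.6, 143 and 132, again upward with no overlap. Its difference was -3.001 ± 0.09 (edgeR adjusted p = 3.96e-19). KIF20A, a kinesin of cytokinesis, changed by -2.76 ± 0.07 in C4-2B and 0.32 ± 0.04 in DU145, a difference of -3.08 ± 0.09 (edgeR adjusted p = 1.79e-19). PTTG1, the securin that guards sister chromatids, changed by -2.41 ± 0.07 and 0.58 ± 0.05, a difference of -2.98 ± 0.09 (edgeR adjusted p = 8.55e-19).

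Genes of G1/S and DNA replication followed with smaller differences. Of 30, 29 were lower in C4-2B and 20 of the 30 by at least 2-fold, with a median difference of -1.30 from -1.36 in C4-2B and 0.03 in DU145. In DU145 9 rose and 6 fell. CDC45, a helicase subunit of the replication fork, read 26.9, 23.7 and 27.1 CPM in C4-2B controls and 4.78, 3.66 and 4.55 after knockdown. The DU145 libraries read 70.1, 74.6 and 73.6 CPM and then 88.1, 91.3 and 83.2. Only the C4-2B change was large, and the difference was -2.85 ± 0.12 (edgeR adjusted p = 1.59e-16). RRM2, which makes deoxynucleotides, was lower in C4-2B by -2.56 ± 0.08 (edgeR adjusted p = 1.19e-18), with -2.54 ± 0.07 in C4-2B and 0.02 ± 0.04 in DU145 (edgeR adjusted p = 0.701). E2F2, an activating E2F factor, differed by -2.23 ± 0.19 (edgeR adjusted p = 4.51e-10) and MCM10, an origin-firing factor, by -2.12 ± 0.12 (edgeR adjusted p = 1.62e-13). The exception, named after its values were seen, was CCNE1, cyclin E1, at 0.10 ± 0.11 in C4-2B and -0.28 ± 0.09 in DU145, a difference of 0.38 ± 0.14 (edgeR adjusted p = 0.0285). The CCNE1 call was lost without C4-2B control 2, C4-2B knockdown 1, DU145 control 2 or DU145 knockdown 3 (edgeR adjusted p 0.0631 to 0.0789).

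**Figure D2:**
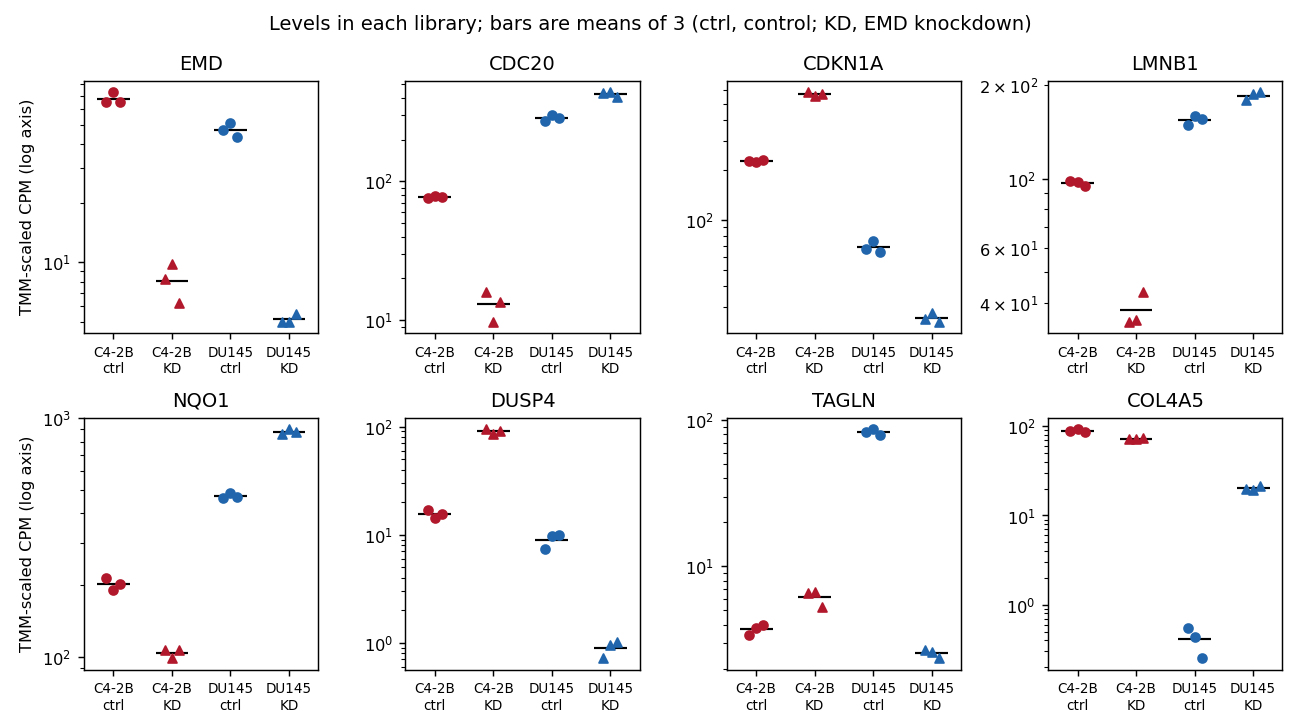
TMM-scaled CPM on log axes for 8 genes in each of the 12 libraries, circles for control and triangles for knockdown, red for C4-2B and blue for DU145, with bars at means of 3. EMD drops in both lines; CDC20, CDKN1A, LMNB1, NQO1, DUSP4 and TAGLN move in opposite directions, and COL4A5 climbs in DU145 from under 1 CPM.

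The list called DNA damage response here holds p53 targets, mostly inducers of arrest, repair or cell death. DNA damage was not measured. The genes of this list diverged the other way. Of 27, 21 were higher in C4-2B, against 21% of all tested genes, 2 were lower and 4 did not pass, with a median difference of 0.58. In C4-2B 24 rose and 1 fell, while in DU145 8 rose and 11 fell, and 10 moved in opposite directions. CDKN1A, the cyclin-dependent kinase inhibitor p21, read 226, 224 and 228 CPM in C4-2B controls and 584, 559 and 574 after knockdown. In DU145 it read 66.5, 74.7 and 63.9 CPM and then 25.5, 27.6 and 24.4. It rose in C4-2B and fell in DU145 with no overlap of arms, a difference of 2.75 ± 0.07 (edgeR adjusted p = 9.83e-20). PHLDA3, an inhibitor of AKT at the membrane, went from 27.8, 26.7 and 27.6 CPM to 69.1, 63.8 and 70.1 in C4-2B and from 18.6, 19.9 and 19.6 to 9.52, 10.4 and 7.12 in DU145. The arms separated in both lines, with a difference of 2.42 ± 0.13 (edgeR adjusted p = 2.96e-14).

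TP53I3, an oxidoreductase, and FAS, the death receptor, completed the 4 largest, with differences of 1.69 ± 0.13 (edgeR adjusted p = 8.66e-11) and 1.54 ± 0.16 (edgeR adjusted p = 7.65e-09). FAS rose by 0.76 in C4-2B and fell by 0.78 in DU145 on the log2 scale. GDF15, a stress cytokine, rose in both lines. Its levels were 583, 617 and 608 CPM in C4-2B controls and 1678, 1558 and 1629.5 after knockdown, but at most 0.537 CPM in any DU145 library. The difference of -1.43 ± 0.50 (edgeR adjusted p = 0.0241) therefore rests on few DU145 reads. It was lost without DU145 control 1, DU145 control 3 or DU145 knockdown 1 (edgeR adjusted p 0.0925 to 0.128) and under DESeq2, limma voom and the fit of all 18 libraries (adjusted p 0.0559 to 0.108). CCNG1, cyclin G1, was the other lower member, named after its values were seen, at -0.16 ± 0.06 (edgeR adjusted p = 0.0378). That call was lost without any 1 of 8 libraries, which were the 3 C4-2B controls, C4-2B knockdowns 2 and 3, DU145 control 1 and DU145 knockdowns 1 and 2 (edgeR adjusted p 0.0547 to 0.161). TP53INP1, a stress-induced autophagy factor with the highest level of those not passing, changed by 0.43 ± 0.06 and 0.62 ± 0.10, a difference of -0.19 ± 0.12 (edgeR adjusted p = 0.214). Its difference passed without DU145 knockdown 2 (-0.30, edgeR adjusted p = 0.0235). With the median of each gene's 20 Mb window taken out, an alternative chosen after seeing the data, TP53INP1 turned to 0.43 (adjusted p = 0.0042) and CCNG1 lost its call (adjusted p = 0.467).

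Of 25 genes of the nuclear envelope, where emerin sits, 8 (32%, against 21% of all tested genes) were higher in C4-2B, 10 (40%, against 24.6%) lower and 7 did not pass, and 8 moved in opposite directions. In all 72% were called, and 24 of the 25 had a mean of at least 1 CPM in each line. Calls climb with the level, to 60.3% of tested genes at a mean log2 CPM of 4 to 6 and 68.1% over 6. LMNB1, the B-type lamin, read 98.3, 97.4 and 94.6 CPM in C4-2B controls and 34.8, 35.2 and 43.4 after knockdown, and 149, 158 and 156 and then 178, 187 and 189 in DU145. It fell by 1.35 in C4-2B and rose by 0.26 in DU145 on the log2 scale with no overlap of arms, a difference of -1.61 ± 0.08 (edgeR adjusted p = 2.03e-14). TMPO, which encodes the LEM-domain lamina-associated polypeptide 2, changed by -0.88 ± 0.04 and 0.33 ± 0.04, a difference of -1.21 ± 0.06 (edgeR adjusted p = 2.34e-15). LMNA, the A-type lamins, rose by 0.13 in C4-2B and fell by 0.15 in DU145, a difference of 0.28 ± 0.07 (edgeR adjusted p = 0.00109).

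The nesprins, outer membrane proteins that link the nucleus to the cytoskeleton, went separate ways. SYNE3 read 7.38, 9.00 and 8.54 CPM in C4-2B controls and 11.9, 10.3 and 10.8 after knockdown, against 9.73, 11.1 and 10.3 and 2.18, 1.66 and 2.26 in DU145. Most of its difference of 2.74 ± 0.19 (edgeR adjusted p = 9.6e-12) came from the DU145 fall. SYNE1 read 62.3, 66.2 and 75.6 CPM in DU145 controls and 212, 210.3 and 247 after knockdown, a rise of 1.71 ± 0.07, while in C4-2B it stayed between 2.91 and 4.11 CPM. The difference for SYNE1 was -1.74 ± 0.21 (edgeR adjusted p = 1.48e-06). SUN1, the inner membrane partner of the nesprins, had a difference of 0.12 ± 0.07 (edgeR adjusted p = 0.127), which passed without C4-2B knockdown 1 or DU145 control 1 (edgeR adjusted p = 0.0343 and 0.027).

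**Figure D3:**
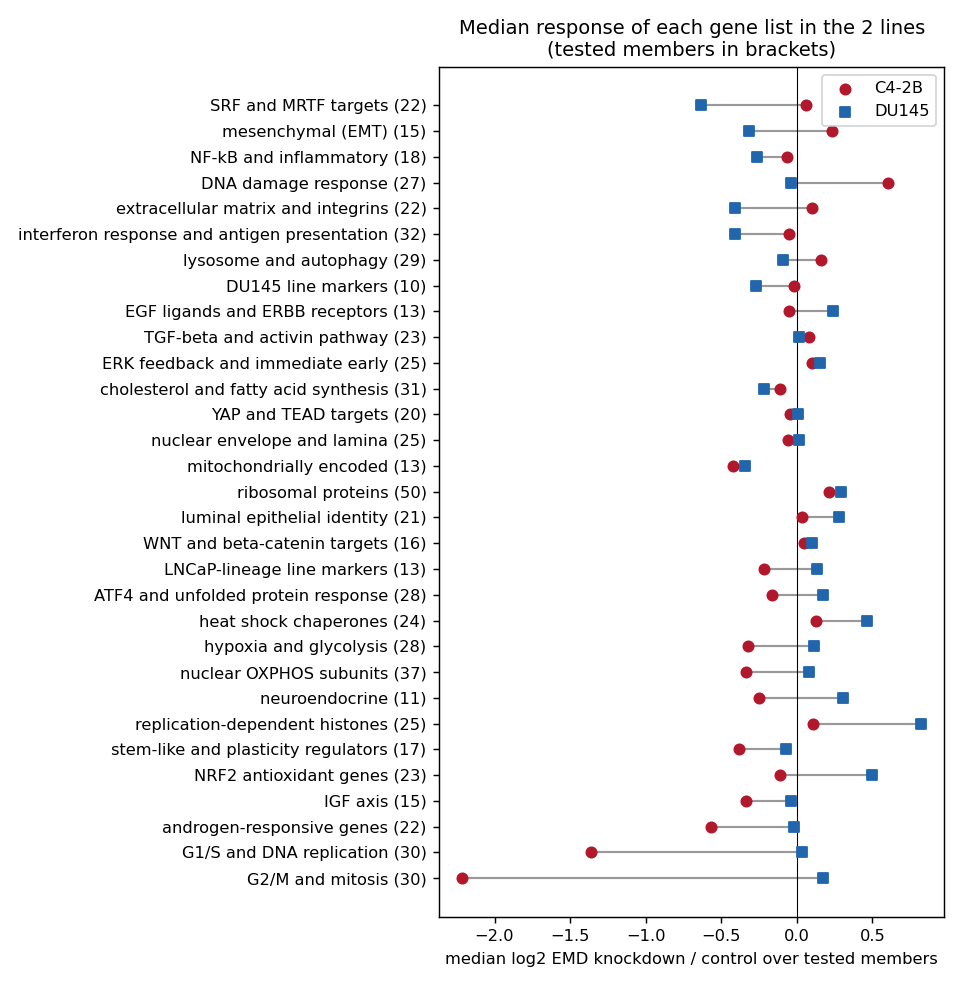
Median log2 change after EMD knockdown over the tested members of each gene list, circles for C4-2B and squares for DU145. The joining line spans the gap between the 2 medians, which can differ from the median of the gene differences. In the NF-kB list the medians were -0.07 and -0.27 and the median difference 0.64. The G2/M list (-2.21 against 0.17) and the G1/S list (-1.36 against 0.03) are the widest gaps, and the SRF and MRTF list (0.06 against -0.63) the widest in the other direction.

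Targets of SRF and its cofactor MRTF, mostly actin and contractile genes, fell in DU145 and showed no common direction in C4-2B. Of 22 tested, 14 were higher in C4-2B than in DU145, 2 were lower and 6 did not pass, with a median difference of 0.80. In DU145 20 of the 22 fell and 0 rose, while in C4-2B 7 rose and 8 fell. TAGLN, the actin-binding protein transgelin, read 82.6, 86.6 and 79.4 CPM in DU145 controls and 2.69, 2.58 and 2.35 after knockdown. In C4-2B it read 3.40, 3.76 and 3.98 CPM and then 6.55, 6.72 and 5.32, a small gain from a low level. The difference was 5.75 ± 0.16 (edgeR adjusted p = 1.79e-19). MYL9, a myosin light chain, changed by -2.19 ± 0.06 in DU145 from 201, 214 and 199 CPM, and stayed at or below 1.37 CPM in C4-2B. The 2 lower members, named after their values were seen, were TAGLN2 and TPM1, which fell in both lines and further in C4-2B, with differences of -0.19 ± 0.07 (edgeR adjusted p = 0.0188) and -0.20 ± 0.06 (edgeR adjusted p = 0.01). TPM1 lost its call without C4-2B control 2 (edgeR adjusted p = 0.0541). TAGLN2 lost its call without any 1 of 7 libraries, which were C4-2B controls 2 and 3, C4-2B knockdowns 2 and 3, DU145 control 1 and DU145 knockdowns 1 and 2 (edgeR adjusted p 0.0506 to 0.132). ACTG1, cytoplasmic gamma actin, fell in both lines, by -0.32 ± 0.04 and -0.34 ± 0.04, with a difference of 0.02 ± 0.06 (edgeR adjusted p = 0.761) whose sign turned without DU145 control 2. With window medians taken out, TAGLN2 lost its call (adjusted p = 0.206) and ACTG1 turned to -0.11 (adjusted p = 0.106).

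Of 22 tested matrix and integrin genes, 15 fell and 6 rose in DU145, while 9 rose and 8 fell in C4-2B. In the difference 15 were higher in C4-2B and 5 lower, with medians of 0.10 in C4-2B and -0.41 in DU145. ITGB4, the beta subunit of the hemidesmosome integrin, read 49.5, 53.2 and 52.7 CPM in DU145 controls and 3.46, 3.39 and 3.79 after knockdown. In C4-2B it went up from 2.89, 1.98 and 2.99 CPM to 5.24, 4.48 and 4.85, which gave a difference of 4.74 ± 0.18 (edgeR adjusted p = 5.85e-17). Its partner ITGA6 changed by 0.28 ± 0.05 and -0.44 ± 0.04, and the collagen receptor ITGA2 by 0.31 ± 0.06 and -1.22 ± 0.05. COL4A5, a basement membrane collagen chain, went the other way. It read 0.546, 0.434 and 0.252 CPM in DU145 controls and 19.96, 19.5 and 21.4 after knockdown, and 88.4, 92.5 and 86.6 and then 71.0, 71.0 and 73.6 in C4-2B. Its difference of -5.97 ± 0.15 (edgeR adjusted p = 4.2e-20) was among the 12 largest lower. The other 4 lower members were ITGB8 (mean of 0.214 CPM in C4-2B), COL18A1, LAMC1 and ITGAV, the last 3 named after their values were seen. ITGAV lost its call with window medians taken out (adjusted p = 0.0525).

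Epithelial genes moved without a common direction, 7 of 21 luminal genes higher in C4-2B, 7 lower and 7 not passing. CDH1, E-cadherin, read 666, 655 and 641 CPM in C4-2B controls and 776, 797 and 769 after knockdown. In DU145 it read 23.2, 24.8 and 23.7 CPM and then 4.86, 5.64 and 5.78, a fall with no overlap of arms and a difference of 2.40 ± 0.08 (edgeR adjusted p = 1.85e-18). CLDN4, a tight junction claudin, rose by 0.81 in C4-2B and fell by 1.48 in DU145, a difference of 2.30 ± 0.11 (edgeR adjusted p = 5.49e-15). The simple keratins KRT8 and KRT18 differed by 1.57 ± 0.06 (edgeR adjusted p = 3.61e-17) and 0.64 ± 0.06 (edgeR adjusted p = 1.29e-09). KRT8 fell in DU145 from 1283, 1386 and 1274 CPM to 438, 447 and 417 and did not pass in C4-2B (-0.03 ± 0.04). FOXA1, a pioneer factor of luminal cells, rose in both lines, by 0.17 ± 0.05 and 0.28 ± 0.05, with a difference of -0.11 ± 0.07 (edgeR adjusted p = 0.198) that turned to 0.0795 (adjusted p = 0.366) with window medians taken out.

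Of 15 tested mesenchymal genes, 7 (46.7%, against 21% of all tested genes) were higher in C4-2B and 4 (26.7%, against 24.6%) lower. TGFBI, a matrix protein induced by TGF-beta, read 156, 178 and 176 CPM in DU145 controls and 99.2, 103 and 98.2 after knockdown, and at most 0.601 CPM in C4-2B. It fell in DU145 with no overlap of arms, and its difference of 2.13 ± 0.47 (edgeR adjusted p = 0.000557) rests on few C4-2B reads. ZEB1, a repressor of E-cadherin, went from 48.5, 54.0 and 53.02 CPM to 37.2, 36.4 and 35.6 in DU145. It had 0 reads in the 3 C4-2B controls, so that its fitted difference depends on the prior count (edgeR adjusted p = 0.00235). Higher members with more reads, named after their values were seen, were the integrin ITGB1 (0.23 ± 0.04 in C4-2B and -0.80 ± 0.04 in DU145) and fibronectin, FN1 (0.03 ± 0.06 and -1.81 ± 0.08). Their differences were 1.02 ± 0.05 (edgeR adjusted p = 5.89e-15) and 1.84 ± 0.10 (edgeR adjusted p = 6.76e-13). SNAI2, the repressor Slug, read 11.9, 10.9 and 11.2 CPM in C4-2B controls and 4.98, 5.02 and 3.72 after knockdown, and 1.14, 0.766 and 1.04 and then 2.89, 2.36 and 2.48 in DU145. It fell where it was the higher and rose where it was the lower, a difference of -2.74 ± 0.27 (edgeR adjusted p = 4.65e-09). VIM, vimentin, read 2072, 2189 and 2079 CPM in DU145 controls and 2089, 2151 and 2028 after knockdown and read 4.65 to 7.58 CPM in C4-2B. The VIM difference of -0.43 ± 0.12 (edgeR adjusted p = 0.00455) was lost without C4-2B control 2 (edgeR adjusted p = 0.0543) and under limma voom (adjusted p = 0.0992). The remaining lower members were TWIST2, at a mean of 0.0539 CPM in C4-2B, and the collagen gene COL1A1, the latter named after its values were seen. The TWIST2 call was lost without C4-2B control 3 or any of the 3 C4-2B knockdown libraries (edgeR adjusted p 0.0620 to 0.091). The basal list held 18 genes, of which 9 were tested. Of these 9, ITGB4 and ITGA6 were higher and KRT15, at a mean of 0.289 CPM in C4-2B, lower. These were 22.2% (against 21% of all tested genes) and 11.1% (against 24.6%).

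Targets of YAP and TEAD, coactivators tied to cell tension, were near the shares of all tested genes, with 5 of 20 higher (25%, against 21%) and 7 lower (35%, against 24.6%). The 5 were CCN2 (mean of 0.167 CPM in C4-2B), CCN1, CRIM1, ARHGEF17 and WWC1, of which the last 4 were named after their values were seen. The largest lower member with reads in both lines was TGFB2, a TGF-beta ligand. TGFB2 read 12.1, 12.6 and 13.5 CPM in C4-2B controls and 2.23, 1.201 and 3.07 after knockdown, while DU145 went from 20.4, 23.1 and 23.1 CPM to 77.0, 74.8 and 78.0. The ligand fell in C4-2B and rose in DU145, a difference of -4.35 ± 0.18 (edgeR adjusted p = 4.4e-15).

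In the TGF-beta and activin list of 23, 5 were higher in C4-2B and 9 lower. These were 21.7% (against 21% of all tested genes) and 39.1% (against 24.6%). The extracellular regulators LTBP2, a latency binding protein, and FSTL3, an activin antagonist, differed by 2.36 ± 0.12 (edgeR adjusted p = 2.23e-14) and 2.13 ± 0.10 (edgeR adjusted p = 4.02e-15). Both rose in C4-2B and fell in DU145. The other 3 higher members, named after their values were seen, were BAMBI, a decoy receptor, the transducer SMAD3 and LTBP3. The SMAD3 call was lost without C4-2B knockdown 1 (edgeR adjusted p = 0.0544). The LTBP3 call was lost without C4-2B control 1, DU145 control 2, DU145 control 3, DU145 knockdown 1 or DU145 knockdown 2 (edgeR adjusted p 0.0528 to 0.0864). SMAD2, a transducer of the pathway, changed by 0.05 ± 0.06 and -0.01 ± 0.05, with a difference of 0.06 ± 0.08 (edgeR adjusted p = 0.536). With window medians taken out SMAD2 passed (0.27, adjusted p = 0.00617) and SMAD3 lost its call (adjusted p = 0.579).

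DUSP4, a nuclear phosphatase that turns off ERK and is itself induced by ERK, changed by 2.55 ± 0.09 in C4-2B and by -3.35 ± 0.15 in DU145. The gene (chr8:29333064-29350668, minus strand, GRCh38) read 16.7, 14.1 and 15.6 CPM in C4-2B controls and 94.5, 84.8 and 91.7 after knockdown. In DU145 it went from 7.34, 9.62 and 9.88 CPM to 0.716, 0.958 and 1.01, with no overlap of arms in either line. The difference was 5.90 ± 0.17 (edgeR adjusted p = 3.17e-19). The ERK feedback and immediate early list as a whole was near the shares of all tested genes, with 7 of 25 higher (28%, against 21%), 6 lower (24%, against 24.6%) and 12 not passing. JUN, a subunit of AP-1, rose by 0.60 in C4-2B and fell by 1.37 in DU145, a difference of 1.97 ± 0.07 (edgeR adjusted p = 1.44e-17). KLF2, a zinc finger factor, fell by 2.15 in DU145 and was between 1.58 and 2.51 CPM in C4-2B.

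Upstream, TGFA, a ligand of the EGF receptor, read 71.9, 78.3 and 73.2 CPM in DU145 controls and 6.12, 6.41 and 5.69 after knockdown, and between 1.93 and 3.21 CPM in C4-2B. Its difference was 4.05 ± 0.19 (edgeR adjusted p = 1.87e-15). LRIG1, which restrains ERBB receptors, differed by -0.76 ± 0.09 (edgeR adjusted p = 2.31e-07). Of 13 genes of ligands and receptors, TGFA, ERBB2 and EGFR were higher and NRG2, BTC, LRIG1 and ERRFI1 lower. These were 23.1% (against 21% of all tested genes) and 30.8% (against 24.6%), near the shares of all tested genes. ERBB2, EGFR and ERRFI1 were named after their values were seen. The NRG2 call, at a mean of 0.0432 CPM in C4-2B, was lost without C4-2B control 3 (edgeR adjusted p = 0.0945), and that of BTC with window medians taken out (adjusted p = 0.0597).

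Antioxidant genes under NRF2 rose in DU145 in 14 of 23, whereas in C4-2B 6 rose and 10 fell. In the difference 15 were lower in C4-2B and 2 higher, with medians of -0.11 in C4-2B and 0.50 in DU145. NQO1, a quinone reductase, read 215, 192 and 202 CPM in C4-2B controls and 108, 99.0 and 107 after knockdown. DU145 went from 464, 489 and 471 CPM to 864, 901 and 876. The gene fell in C4-2B and rose in DU145, a difference of -1.85 ± 0.06 (edgeR adjusted p = 7.31e-18). HMOX1, the haem oxygenase, rose in both lines, from 35.2, 35.4 and 34.8 CPM to 65.1, 57.9 and 66.7 in C4-2B and from 39.1, 38.1 and 37.6 to 308, 319 and 303 in DU145. Its difference of -2.17 ± 0.07 (edgeR adjusted p = 6.69e-18) was of size and not of direction. The 2 higher members, named after their values were seen, were TXNRD1, thioredoxin reductase (0.75 ± 0.06 (edgeR adjusted p = 4.05e-11)), and TALDO1, of the pentose phosphate path (0.20 ± 0.06 (edgeR adjusted p = 0.00465)).

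Genes of hypoxia and glycolysis were lower in C4-2B in 19 of 28 and higher in 2, with medians of -0.33 in C4-2B and 0.12 in DU145. LDHA, lactate dehydrogenase A, read 561, 538 and 541 CPM in C4-2B controls and 355, 339 and 332 after knockdown, and 801, 805 and 789 and then 1399, 1433 and 1376 in DU145. The arms moved apart, a difference of -1.49 ± 0.05 (edgeR adjusted p = 1.33e-17). PFKP, a phosphofructokinase, changed by -0.92 ± 0.05 and 0.21 ± 0.04. ADM, the peptide adrenomedullin, rose in DU145 from 4.52, 3.60 and 4.12 CPM to 53.7, 51.4 and 51.2 and was at most 0.472 CPM in C4-2B. The 2 higher genes, named after their values were seen, were VEGFA, the vascular growth factor (0.85 ± 0.07 (edgeR adjusted p = 3.43e-10)), and P4HA2, a collagen prolyl hydroxylase (0.77 ± 0.10 (edgeR adjusted p = 2.98e-07)).

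Nuclear genes for oxidative phosphorylation (OXPHOS) mostly fell in C4-2B. Of 37, 30 were lower in C4-2B than in DU145 and 4 higher, with a median difference of -0.41 from -0.33 in C4-2B and 0.08 in DU145. In C4-2B 31 fell and 1 rose, and in DU145 16 rose and 6 fell. NDUFB8, of complex I, read 69.5, 60.0 and 60.4 CPM in C4-2B controls and 43.8, 43.7 and 41.7 after knockdown, and 69.5, 70.3 and 59.7 and then 112, 112 and 108 in DU145. The difference was -1.28 ± 0.09 (edgeR adjusted p = 1.02e-11), downward in C4-2B and upward in DU145. COX6C, of complex IV, and ATP5PB, of the ATP synthase, differed by -1.24 ± 0.07 (edgeR adjusted p = 8.92e-14) and -0.67 ± 0.06 (edgeR adjusted p = 1.52e-09). COX6C lies on chromosome 8 between 80 and 100 Mb, where the median difference of protein-coding genes was -0.62. NDUFV1, another complex I subunit, did not pass (0.05 ± 0.06 (edgeR adjusted p = 0.56)).

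The 4 higher members of that list, named after their values were seen, were COX7C, ATP5PO, SDHC and SDHA. COX7C lost its call without DU145 control 2 (edgeR adjusted p = 0.0583). SDHA lost its call without C4-2B control 1, C4-2B knockdown 3, DU145 control 2, DU145 knockdown 1 or DU145 knockdown 3 (edgeR adjusted p 0.0552 to 0.111), and with window medians taken out (adjusted p = 0.886), where ATP5PO turned to -0.0498 (adjusted p = 0.601). Of the 13 genes of the mitochondrial genome, 9 fell in C4-2B and 11 in DU145, and 3 were higher and 2 lower in the difference. The shares in the difference were 23.1% higher (against 21% of all tested genes) and 15.4% lower (against 24.6%). MT-CO2 changed by -0.76 ± 0.07 and -0.25 ± 0.07, a difference of -0.51 ± 0.10 (edgeR adjusted p = 0.000957). MT-ND1 changed by 0.16 ± 0.05 and -0.35 ± 0.05, a difference of 0.51 ± 0.07 (edgeR adjusted p = 1.36e-06). MT-ND6 and MT-ND5, which lie on opposite strands, were the other higher members, and MT-CO3 the other lower one. Strandedness is not given, so antisense reads at MT-ND6 and MT-ND5 cannot be told apart. MT-ND5 was named after its values were seen, and its call was lost in the fit of all 18 libraries (edgeR adjusted p = 0.185). The MT-CO3 call was lost without C4-2B control 1, C4-2B control 3, DU145 control 1, DU145 control 2, DU145 knockdown 2 or DU145 knockdown 3 (edgeR adjusted p 0.0515 to 0.0808). MT-CO1 fell in both lines, with a difference of -0.06 ± 0.06 (edgeR adjusted p = 0.397).

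**Figure D4:**
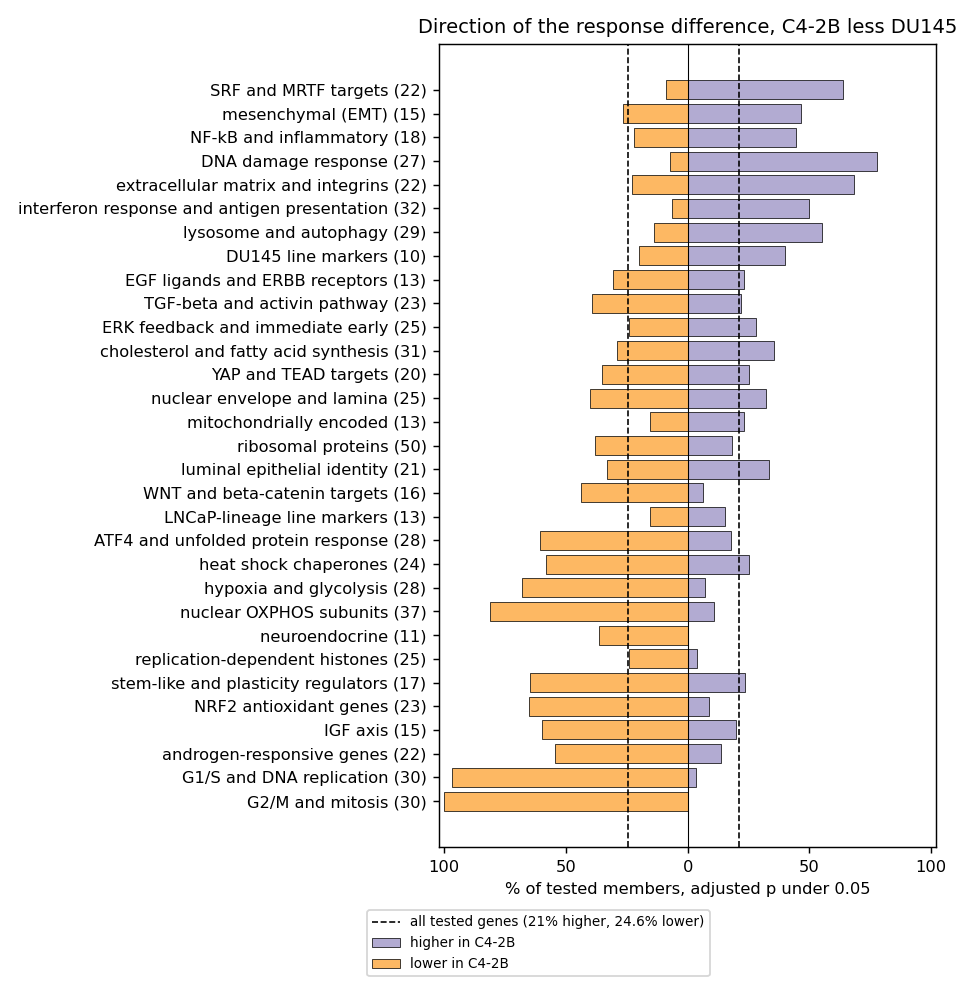
Share of each list's tested members (number in brackets) whose response was higher (right) or lower (left) in C4-2B than in DU145, with dashed lines at the shares of all tested genes, 21% and 24.6%. The G2/M, G1/S and nuclear OXPHOS lists reach 100%, 96.7% and 81.1% on the left, and DNA damage response genes 77.8% on the right.

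Of 24 heat shock chaperone genes, 11 rose and 5 fell in C4-2B, and 18 rose and 3 fell in DU145. In the difference 14 were lower in C4-2B and 6 higher. HSPB8, a small chaperone of selective autophagy, read 12.2, 12.6 and 13.7 CPM in C4-2B controls and 3.28, 3.44 and 3.37 after knockdown. In DU145 it read 0.546, 0.664 and 0.346 CPM and then 5.64, 6.12 and 5.69, so that the order of the lines swapped, a difference of -5.39 ± 0.26 (edgeR adjusted p = 3.83e-15). HSPB1, the small chaperone HSP27, rose by 0.26 in C4-2B and fell by 0.78 in DU145. SERPINH1, the collagen chaperone HSP47, rose in C4-2B from 1.03, 0.864 and 0.748 CPM to 6.81, 6.06 and 6.44 and fell in DU145 by 0.53. HSPA6, the strictly inducible HSP70, rose from 0.128, 0.153 and 0.236 CPM to 5.44, 5.19 and 5.85 in C4-2B and from 1.29, 1.35 and 1.23 to 3.43, 3.98 and 4.04 in DU145.

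Of 28 genes of ATF4 and the unfolded protein response, 17 were lower in C4-2B and 5 higher. SLC7A11, the cystine transporter, changed by -0.32 ± 0.05 and 1.12 ± 0.05, and DDIT4, an inhibitor of mTORC1, by 0.05 ± 0.04 (not past the threshold) and 1.15 ± 0.05. Their differences were -1.43 ± 0.07 (edgeR adjusted p = 4.42e-15) and -1.11 ± 0.06 (edgeR adjusted p = 1.04e-13). CALR, the chaperone calreticulin, rose by 0.25 in C4-2B and fell by 0.69 in DU145. The other 4 higher genes, named after their values were seen, were PDIA4, CREB3L2, DNAJB9 and SHMT2. The SHMT2 call was lost without DU145 control 2, DU145 knockdown 1 or DU145 knockdown 3 (edgeR adjusted p 0.0576 to 0.0929). With window medians taken out, CREB3L2 and DNAJB9 lost their calls (adjusted p = 0.281 and 0.945) and PDIA4 turned to -0.12 (adjusted p = 0.0724). SLC3A2, the partner of SLC7A11, rose in both lines by 0.62 ± 0.04 and 0.70 ± 0.04, with a difference of -0.08 ± 0.05 (edgeR adjusted p = 0.243).

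Interferon and antigen presentation genes fell in DU145 in 20 of 32, while in C4-2B 8 rose and 5 fell. In the difference 16 were higher and 2 lower, with a median of 0.44. IFITM3, an endosomal antiviral protein, read 3.62, 3.06 and 2.96 CPM in DU145 controls and 0.149, 0.0737 and 0.122 after knockdown, and 82.9, 74.6 and 79.7 and then 70.3, 65.6 and 64.4 in C4-2B. It fell in both lines, and further in DU145, with a difference of 4.44 ± 0.26 (edgeR adjusted p = 2.31e-13). NLRC5, the transactivator of MHC class I, fell by 1.74 in DU145 and changed by 0.45 ± 0.24 in C4-2B, which did not pass. PSMB9, of the immunoproteasome, rose in DU145 by 1.63, a difference of -2.18 ± 0.30 (edgeR adjusted p = 1.1e-06). TAP1, the peptide transporter, was the other lower member and was named after its values were seen. B2M, the light chain of MHC class I, fell in both lines, by -0.62 ± 0.04 and -0.63 ± 0.04, a difference of 0.02 ± 0.06 (edgeR adjusted p = 0.864) whose sign turned without DU145 control 2 or DU145 knockdown 3. It turned to -0.31 (adjusted p = 9.34e-05) with window medians taken out.

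Of 18 NF-kB and inflammatory genes, 8 were higher in C4-2B and 4 lower. TNFAIP3, the NF-kB inhibitor A20, read 91.0, 107 and 96.7 CPM in DU145 controls and 13.7, 13.3 and 11.4 after knockdown, and between 6.44 and 8.64 CPM in C4-2B. CXCL8, the neutrophil chemokine, fell by 2.83 in DU145 and by 0.83 in C4-2B. Their differences were 2.83 ± 0.15 (edgeR adjusted p = 4e-14) and 1.99 ± 0.25 (edgeR adjusted p = 2.07e-07). TNFAIP2 fell by 2.27 in C4-2B and by 0.32 in DU145, a difference of -1.95 ± 0.12 (edgeR adjusted p = 1.22e-12). The other 3 lower members, named after their values were seen, were BIRC3, NFKBIA and NFKB2.

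Lysosome and autophagy genes were higher in C4-2B in 16 of 29 and lower in 4, with medians of 0.16 in C4-2B and -0.09 in DU145. In all 69% were called, against 60.3% of tested genes at a mean log2 CPM of 4 to 6 and 68.1% over 6. NEU1, the lysosomal sialidase, went from 47.1, 47.3 and 44.1 CPM to 67.4, 65.6 and 63.9 in C4-2B and from 38.7, 39.9 and 36.8 to 26.1, 24.5 and 24.9 in DU145. It rose in the former and fell in the latter, a difference of 1.12 ± 0.08 (edgeR adjusted p = 1.64e-11). NPC2, a cholesterol carrier of the lysosome, fell in both lines and further in DU145 (1.14 ± 0.08 (edgeR adjusted p = 1.7e-11)). LAMP3 rose in both and further in C4-2B (1.46 ± 0.20 (edgeR adjusted p = 7.66e-07)). SQSTM1, the autophagy receptor p62, rose in both lines, by 0.81 ± 0.04 and 0.86 ± 0.04, with a difference of -0.05 ± 0.06 (edgeR adjusted p = 0.501) that turned to 0.0444 (adjusted p = 0.582) with window medians taken out. The lower members included CTSL, WIPI1 and ULK1, of which the last 2 were named after their values were seen.

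Of 15 genes of the insulin-like growth factor axis, 9 were lower in C4-2B and 3 higher. IGFBP3, which sequesters the growth factors, read 294, 292 and 291 CPM in C4-2B controls and 33.0, 34.3 and 35.6 after knockdown. In DU145 it read 7.00, 8.02 and 6.86 CPM and then 11.1, 11.5 and 10.2, a modest rise. The difference was -3.66 ± 0.09 (edgeR adjusted p = 4.31e-20). IGFBP2 went from 6.55, 6.51 and 5.66 CPM to 48.6, 54.2 and 41.2 in DU145 and from 125, 127 and 128 to 105, 91.6 and 105 in C4-2B, a difference of -3.28 ± 0.13 (edgeR adjusted p = 1.56e-13) carried by the DU145 rise. IGFBP5 fell by 1.87 in C4-2B and was at most 1.37 CPM in DU145. STC1, a secreted glycoprotein, was higher by 3.19 ± 0.38 (edgeR adjusted p = 1.12e-07) with a fall in DU145 from 24.6, 23.8 and 21.9 CPM to 1.37, 0.774 and 1.53. The other 2 higher members, named after their values were seen, were the receptors IGF2R and INSR.

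Regulators tied to stem-like states and plasticity were lower in C4-2B in 11 of 17 and higher in 4. ID3, an inhibitor of bHLH factors, read 48.0, 50.3 and 51.3 CPM in C4-2B controls and 22.0, 22.1 and 17.6 after knockdown, and 49.1, 54.6 and 52.9 and then 83.7, 85.0 and 82.1 in DU145. Control levels of ID3 overlapped between the lines, and the arms parted after knockdown, a difference of -1.96 ± 0.09 (edgeR adjusted p = 4.82e-15). Its relative ID2 differed by -2.31 ± 0.07 (edgeR adjusted p = 1.74e-18) and the R-spondin receptor LGR4 by -1.90 ± 0.08 (edgeR adjusted p = 5.48e-16), both with a fall in C4-2B and a rise in DU145. The higher members were ITGA2, BMI1, HMGA1 and MSI2, the last 3 named after their values were seen, and BMI1 lost its call with window medians taken out (adjusted p = 0.999). The neuroendocrine list held 22 genes, of which 11 were tested. Of these 11, 4 were lower: AURKA and STMN1, which are also proliferation genes, and the low-level POU3F2 and SCG5, at means of 0.292 and 0.341 CPM in C4-2B. The SCG5 call was lost without C4-2B control 1, C4-2B knockdown 2, C4-2B knockdown 3, DU145 control 2 or DU145 knockdown 3 (edgeR adjusted p 0.0553 to 0.0743). Of 16 WNT and beta-catenin targets, 7 were lower and 1 higher, AXIN2, named after its values were seen, while CCND1, cyclin D1, did not pass (0.03 ± 0.05 (edgeR adjusted p = 0.746)).

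Androgen-responsive genes can be compared only in part, because DU145 hardly expresses them. Of 22 tested, 12 were lower in C4-2B and 3 higher, but only 13 had a mean of at least 1 CPM in each line, and 6 were lower when genes below that level were left out. STEAP4, a metalloreductase, read 7.44, 7.58 and 7.52 CPM in C4-2B controls and 0.393, 0.491 and 0.473 after knockdown, and at most 1.19 CPM in DU145. TRPM8, a cold-sensing channel, fell by 1.71 in C4-2B and was at most 0.397 CPM in DU145. STEAP2 rose by 0.19 in C4-2B from 1093, 1158 and 1164 CPM and changed by 0.14 ± 0.06 in DU145, which did not pass. The 3 higher members, named after their values were seen, were SLC45A3, UAP1 and PMEPA1. With window medians taken out, PMEPA1 turned to -0.00972 (adjusted p = 0.941) and STEAP2 to -0.35 (adjusted p = 0.000341).

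Cholesterol and fatty acid synthesis had 11 of 31 higher, 9 lower and 11 not passing, with 7 higher once window medians were taken out. In all 64.5% were called, against 60.3% of tested genes at a mean log2 CPM of 4 to 6 and 68.1% over 6. LSS, TM7SF2 and CYP51A1, enzymes that make and convert lanosterol, differed by 1.08 ± 0.07 (edgeR adjusted p = 7.2e-12), 1.36 ± 0.09 (edgeR adjusted p = 4.97e-12) and 0.86 ± 0.06 (edgeR adjusted p = 2.17e-11), each with a fall in DU145. SQLE, the squalene epoxidase before them, went the other way (-0.96 ± 0.07 (edgeR adjusted p = 5.65e-11)), with a rise in DU145 from 133, 134 and 134 CPM to 187, 197 and 183. LSS, CYP51A1 and SQLE lie in windows of chromosomes 21, 7 and 8, where the median differences of protein-coding genes were 0.491, 0.408 and -0.495. Each of these medians had the sign of its gene's difference. The window of TM7SF2, on chromosome 11, had a median of -0.0305. The part of position in this contrast between enzymes was not tested.

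Ribosomal protein genes rose in both lines, 37 of 50 in C4-2B and 41 in DU145, and 19 were lower and 9 higher in the difference, 0 of them by 2-fold. In all 56% of the 50 were called, against 68.1% of tested genes at a mean log2 CPM over 6. RPL7, RPL8 and RPS20, which lie on chromosome 8, had differences of -0.68 ± 0.06 (edgeR adjusted p = 3.36e-10), -0.54 ± 0.06 (edgeR adjusted p = 2.08e-08) and -0.53 ± 0.07 (edgeR adjusted p = 2.02e-07). With window medians taken out, 7 ribosomal genes were lower, and RPL7 and RPS20 lost their calls at -0.05 (adjusted p = 0.515) and -0.10 (adjusted p = 0.255). These genes have many near-identical pseudogenes, among which counting may split reads. Of 25 replication-dependent histone genes, 6 were lower (24%, against 24.6% of all tested genes) and 1 higher, H2BC12, named after its values were seen. H2BC4 and H2BC5 differed by -1.57 ± 0.21 (edgeR adjusted p = 9.22e-07) and -1.17 ± 0.14 (edgeR adjusted p = 2.25e-07), and reads of such near-identical copies are uncertain in the same way.

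Among single genes outside the lists, BCHE, butyrylcholinesterase (chr3:165772904-165837472, minus strand), had the largest difference. It read 94.5, 101 and 96.1 CPM in DU145 controls, 8899 reads in all, and had 0 reads in each of the 3 knockdown libraries. Against a floor of 3 reads over that group, it was at least 3020-fold lower, for counting error only. C4-2B went from 1.99, 1.02 and 1.34 CPM to 9.57, 9.83 and 10.4, a rise of 2.82 ± 0.15. Where only DU145 fell, CBLC, a ubiquitin ligase, went from 5.56, 5.95 and 5.25 CPM to 0.149, 0.111 and 0.0612 and stayed between 11.4 and 14.2 in C4-2B. SUSD2, a membrane glycoprotein, went from 19.4, 19.3 and 19.4 CPM to 0.895, 0.958 and 0.734 in DU145 and from 13.4, 13.6 and 13.6 to 11.9, 12.0 and 12.2 in C4-2B. C1orf116 and TINAGL1 differed by 4.42 ± 0.13 (edgeR adjusted p = 6.47e-19) and 4.01 ± 0.19 (edgeR adjusted p = 7.75e-15) with a DU145 fall in each. ADAM8, a membrane protease, rose by 1.41 in C4-2B and fell by 2.83 in DU145.

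At the other end, ZNF300, a zinc finger gene (chr5:150894392-150904983, minus strand), read 0.149, 0 and 0.0629 CPM in DU145 controls and 11.3, 11.1 and 12.2 after knockdown. In C4-2B it read 29.5, 27.1 and 28.5 CPM and then 22.8, 24.96 and 23.5. It was thus at or near 0 in DU145 controls and present in the other 3 groups, with a difference of -7.84 ± 0.28 (edgeR adjusted p = 1.68e-17) that rests on few control reads. AP1M2, of the epithelial clathrin adaptor, rose in DU145 from 0.744, 0.434 and 0.503 CPM to 11.3, 11.0 and 11.7 and was between 136 and 157 in C4-2B. NPR3, the natriuretic peptide clearance receptor (chr5:32689070-32791724, plus strand), read 7.06, 9.15 and 6.69 CPM in C4-2B controls and 0.197, 0.0546 and 0.414 after knockdown, and 5.51, 4.14 and 4.66 and then 16.4, 16.0 and 16.8 in DU145. The knockdown levels of the lines lay further apart than the control levels, a difference of -6.90 ± 0.33 (edgeR adjusted p = 3.48e-15). The homeobox gene LHX2 and the small GTPase gene RASD1 rose in DU145 by 3.31 and 3.57, with differences of -4.10 ± 0.24 (edgeR adjusted p = 7.95e-12) and -4.06 ± 0.25 (edgeR adjusted p = 5.36e-13).

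Further genes moved in opposite directions in the 2 lines. CSGALNACT1, which starts chondroitin chains, changed by -1.03 ± 0.14 and 2.93 ± 0.10. NRCAM, a neural adhesion molecule, changed by -1.19 ± 0.28 and 3.46 ± 0.25, and DOCK8, an activator of CDC42, by -1.73 ± 0.19 and 0.98 ± 0.13. In the other orientation, SLC16A7, a monocarboxylate transporter, changed by 1.15 ± 0.19 and -1.58 ± 0.18, and SYTL2, a vesicle tether, by 1.17 ± 0.09 and -1.13 ± 0.13. All 5 had arms that did not overlap in either line. Most named genes were picked by these tests. Here and above, such separation describes the values and is no separate support.

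The direction of the difference also followed position in the genome, and DU145 carried that pattern. Over 153 windows of 20 Mb with at least 20 protein-coding genes, the median log2 change of C4-2B ran from -0.26 to 0.20, with 0 windows beyond 0.3 in size. In DU145 it ran from -0.54 to 0.59, with 24 windows (1755 genes) beyond 0.3. On chromosome 7, 44.7% of genes were higher and 17.4% lower in the difference, and on chromosome 21 the shares were 49% and 10.2%. Chromosomes 15 and 20 leaned the same way, with 44.4% and 41.4% higher. The lean did not span all of chromosomes 7 and 20. On chromosome 7 the median difference was -0.36 from 20 to 40 Mb and between 0.41 and 0.70 in the windows from 60 to 160 Mb. On chromosome 20 it was -0.20 from 0 to 20 Mb and 0.62 from 60 to 80 Mb. Chromosome 8 divided too. From 0 to 20 Mb and 20 to 40 Mb its DU145 medians were -0.43 and -0.46, and from 60 to 80, 80 to 100 and 100 to 120 Mb they were 0.56, 0.59 and 0.57, while the C4-2B medians of these 5 windows lay between -0.12 and -0.05. DNA was not measured, so a change in transcription and a difference in DNA copy number between the DU145 control and knockdown cells cannot be told apart here. The labels do not say whether the DU145 knockdown cells were a selected or clonal population, and each DU145 change above is a difference between these arms whatever its source.

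**Figure D5:**
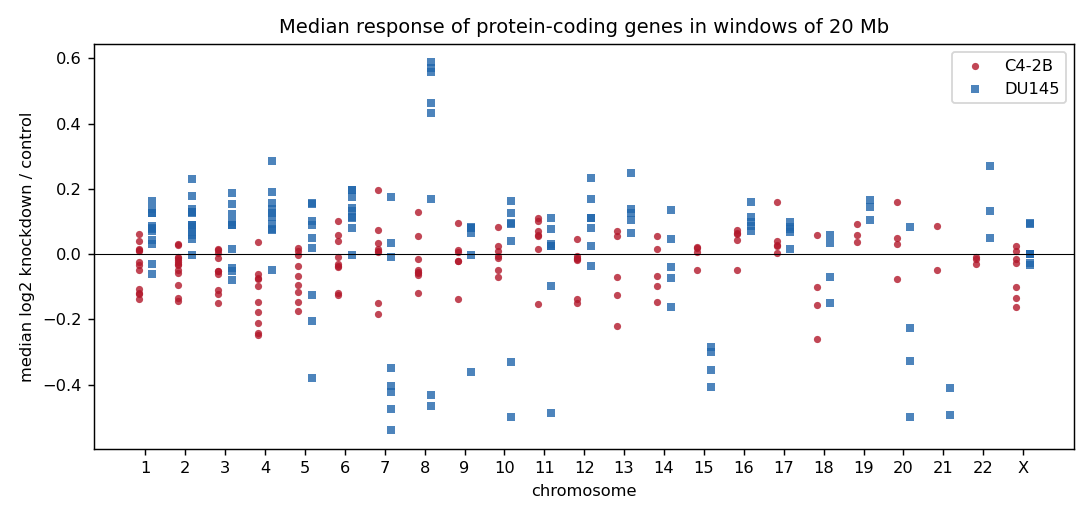
Median log2 change after EMD knockdown of the protein-coding genes of each 20 Mb window, by chromosome, circles for C4-2B and squares for DU145. C4-2B windows lie between -0.26 and 0.20, whereas DU145 windows reach -0.54 on chromosome 7 and 0.59 on chromosome 8.

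Taking each window's median out of the difference, an alternative chosen after seeing the data, changed the counts of 2 of 17 lists followed by more than 1.5 times. The G2/M median went from -2.37 to -2.36, the DNA damage response median from 0.58 to 0.72, the SRF and MRTF median from 0.80 to 0.70 and the nuclear OXPHOS median from -0.41 to -0.31. The 2 lists were the ribosomal genes, from 19 to 7 lower, and the cholesterol genes, from 11 to 7 higher. Adjusted p-values with window medians taken out use the edgeR standard errors.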

How the data were processed

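RNA-seq of 12 libraries, 3 per group, was used. The deposited values are estimated counts per gene, given as whole numbers. STAR, RSEM 1.3.1 and the build GRCh38 are named for the authors' alignment and counting in the submitters' processing notes. The annotation release, the strandedness of the kit and the rounding step are not given in the sources used here, so overlapping genes and antisense pairs may share reads. The C4-2B table holds 22360 genes. The DU145 table holds 37378 entries, from which 92 spike-in sequences and 30 second copies of pseudoautosomal genes were left out. Tables were joined on Ensembl identifiers without version, and symbols and positions came from GENCODE 29 and supplied name tables.

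Low genes were dropped by filterByExpr (at least 10 reads, and 15 over all libraries). The robust quasi-likelihood F test of edgeR 4.0.16 (R 4.3.3) was then run with TMM factors and 1 coefficient per group. Benjamini-Hochberg adjustment ran over all 17216 genes, with a threshold of 0.05. A standard error is the estimate divided by root F, and the interval for EMD uses 8 residual degrees of freedom. The test was tried on simulated counts. Reads carry no molecular identifiers here, so the floor of 3 reads covers counting error only, and deeper libraries lower that error.

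The members of the comparison and the 34 gene lists were chosen with earlier results of these data known. List counts are over tested members, and genes without an entry in both lines could not be tested. Genes named are EMD, 8 set genes (LMNA, LMNB1, VIM, KRT8, KRT18, CDKN1A, GDF15 and IGFBP3), the 12 largest differences each way with a mean of at least 2 CPM in each line and 9 ratios of each line that do not overlap, the 8 strongest opposite movers each way under the same mean filter, and up to 4 passing members and 1 non-passing member of each list. Genes near 0 or with near-identical copies were left out in part, and some items are not reported here. Alternatives were library totals, DESeq2 1.42.0, limma 3.58.1 with voom, 2 other filters, all 18 libraries, a replicate block and leaving out each library. Removal of window medians was added after seeing the data.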

Additional observations from a re-analysis of the deposited data

Results flagged for a closer look

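The interaction test marked 7846 genes whose response to EMD knockdown differed between C4-2B and DU145. Among them, 962 rose in C4-2B and fell in DU145, and 1286 fell in C4-2B and rose in DU145, each past the threshold in both lines by the edgeR test.

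The named genes with movement in opposite directions and a tested difference were as follows, all on the log2 scale as C4-2B less DU145. BCHE differed by 17.04, a fitted value that depends on the prior count because DU145 knockdown libraries held 0 reads. DUSP4 differed by 5.90, ADAM8 by 4.24, CDKN1A by 2.75, SLC16A7 by 2.73, PHLDA3 by 2.42 and SYTL2 by 2.31. On the other side, NPR3 differed by -6.90, HSPB8 by -5.39, NRCAM by -4.66, TGFB2 by -4.35, CSGALNACT1 by -3.96 and DOCK8 by -2.72.

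Each group held 3 libraries, too few for the gap test of single values that groups of 4 or more allow.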

How the results depend on the processing

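Over 19 alternatives to the reported fit, between 7206 and 8055 genes differed, and 90.8% to 99.8% of the reported calls that could be tested again were kept in the same direction. A further alternative, removal of window medians, was added after seeing the data and kept 79.7%. Leaving out 1 library gave 3263 to 3754 genes higher and 3782 to 4153 lower, 812 to 974 that rose in C4-2B and fell in DU145, and 1047 to 1247 that did the reverse. The G2/M list kept 30 lower members and the G1/S list 29 throughout those 12 fits, and the DNA damage response list had 19 to 21 higher.

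Requiring a mean of at least 1 CPM in each line left 724 genes at least 2-fold higher, 707 at least 2-fold lower and 6 androgen-responsive genes lower, with fewer genes tested. Removing window medians left 7 cholesterol genes higher and 7 ribosomal genes lower.

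Of 164 named genes past the threshold, 138 kept call and direction in every setting that tested them. Some were not tested in all, as ZEB1 and TGFBI lie below 1 CPM in C4-2B. The 15 genes whose calls rested on single libraries are CCNE1, CCNG1, COX7C, GDF15, LTBP3, MT-CO3, NRG2, SCG5, SDHA, SHMT2, SMAD3, TAGLN2, TPM1, TWIST2 and VIM. Leaving out 1 library turned the sign of 3 differences that did not pass. EMD ran from -0.0373 (without C4-2B knockdown 2) to 0.295, ACTG1 from -0.0203 (without DU145 control 2) to 0.0678, and B2M from -0.00155 (without DU145 control 2) to 0.0523, with -0.000499 without DU145 knockdown 3. With window medians removed, signs turned for TP53INP1 (0.43), ACTG1 (-0.11), FOXA1 (0.0795), B2M (-0.31), SQSTM1 (0.0444), ATP5PO (-0.0498), STEAP2 (-0.35), PDIA4 (-0.12) and PMEPA1 (-0.00972). Calls were lost under limma voom for GDF15, VIM, TWIST2, SMAD3 and NRG2, in the fit of 18 libraries for GDF15, COX7C, MT-ND5 and LTBP3, under DESeq2 for GDF15, without a filter for CCNG1 and with library totals for MT-CO3 (adjusted p 0.0502 to 0.224). Window removal also took the calls of RPL7, RPS20, CCNG1, TAGLN2, SDHA, CREB3L2, DNAJB9, ITGAV, BMI1, SMAD3 and BTC, and let SMAD2 pass (log2 difference of 0.27, adjusted p = 0.00617). SUN1, which did not pass, passed with library totals and with a mean of at least 1 CPM (edgeR adjusted p = 0.0485 and 0.0375). The cause was not tested.

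Replicate numbers are shared by the arms of each line, but no label says that they mark a culture or day. Deviations of same-numbered libraries correlated at -0.0139 to 0.03 in C4-2B and 0.0423 to 0.185 in DU145. With the replicate block 8055 genes differed, and no named call changed.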
